A study of Arabidopsis thaliana with 18 samples.

Results

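Transcripts of annotated non-coding genes were examined in 6 lists of TIF-clusters from Arabidopsis thaliana seedlings. A TIF-cluster is a set of capped and polyadenylated RNA molecules whose 5′ and 3′ ends, read as a pair, fall within 20 nt of each other, and its size is a count of read pairs. A cluster was kept where it overlapped, on its own strand, a gene annotated with a biotype other than protein coding and overlapped no coding gene on that strand. This rule kept 1175 of 259431 clusters. They lay at 254 of the 10455 non-coding genes annotated on chromosomes 1 to 5, called loci here, and 257251 clusters lay at coding genes.

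The study used TIF-seq to follow where transcripts start and end when RNA decay, chromatin or temperature was altered. All seedlings were of the Col-0 background, 14 days old and grown on sugar-containing medium in long days, at 22 °C with a lower temperature at night. The groups were hen2-2 after 3 h at 4 °C, hen2-2 at 22 °C, spt16-1 at 22 °C, ssrp1-2 at 22 °C, wild type after 3 h at 4 °C and wild type at 22 °C. The hen2-2 allele affects HEN2, an RNA helicase that works with the nuclear exosome, and spt16-1 and ssrp1-2 affect the subunits of FACT, a histone chaperone that travels with RNA polymerase II. Each list pools 2 libraries, so there is 1 value per group, no replicate error and no test between groups. All intervals given are 95% intervals that cover counting error only.

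Many non-coding RNAs made by RNA polymerase II carry a cap and a poly(A) tail like an mRNA. In the nucleus many of them are removed quickly by the exosome, which degrades RNA from its 3′ end. A primary microRNA is such a transcript, and DCL1 cuts the hairpin that holds the mature microRNA out of it. Small nucleolar RNAs (snoRNAs) are trimmed from longer precursors and guide the modification of ribosomal RNA, those with C/D boxes for methylation and those with H/ACA boxes for pseudouridine.

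The sequences below are shown because the 3′ ends of many microRNA clusters in hen2-2 fell inside them. They are the first mature arm (the mature sequence nearer to the 5′ end of the hairpin), or the only annotated one, at the loci with most read pairs ending there, with the seed (bases 2 to 8) in capitals, from RefSeq (build TAIR10.1).
ath-miR156e: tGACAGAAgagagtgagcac
ath-miR398b-5p: aGGGTTGAtatgagaacacac
ath-miR398c-5p: aGGGTTGAtatgagaacacac
ath-miR160a-5p: tGCCTGGCtccctgtatgcca
ath-miR408-5p: aCAGGGAAcaagcagagcatg
ath-miR396a-5p: tTCCACAGctttcttgaactg
ath-miR162b-5p: tGGAGGCAgcggttcatcgatc
The 5p arms of MIR398b and MIR398c were identical, so these 2 loci shared a seed, and the remaining loci shown had a seed each. Where a further arm is annotated at a locus, it is not shown. Which arm acts on the targets named below was not tested, so the seeds shown are not given as those that act on them.

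The next sequences show where clusters ended. Each is a 30-base window of the genome (TAIR10.1), read on the strand of the gene, in which base 20 is the last base of the largest hen2-2 cluster at 22 °C that ended in the arm, and the capitals mark the arm.
MIR156e, chr5:3867209-3867238, plus strand: gaggTGACAGAAGAGAGTGAGCACacatgg
MIR398b, chr5:4691023-4691052, plus strand: ggatctcgacAGGGTTGATATGAGAACACA
MIR398c, chr5:4694695-4694724, plus strand: ggatctcgacAGGGTTGATATGAGAACACA
MIR160a, chr2:16340269-16340298, plus strand: tattatatatgtaTGCCTGGCTCCCTGTAT
MIR408, chr2:19319847-19319876, plus strand: aagcggtaatgagagagagACAGGGAACAA
MIR396a, chr2:4142449-4142478, minus strand: accctctctgtattcTTCCACAGCTTTCTT
MIR162b, chr5:7740686-7740715, minus strand: gaggaaagagtgaagtcgcTGGAGGCAGCG
The windows of MIR398b and MIR398c were the same 30 bases, and at 22 °C the cluster ended after base 10 of the arm at both loci. At 4 °C the ends differed. The largest MIR398b cluster (28 read pairs) ended 4 nt before the arm, and that of MIR398c (15 read pairs) ended after base 16.

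Non-coding loci took a larger share of the read pairs in the hen2-2 lists than in any of the other 4. The share was 0.583% (0.560 to 0.607) in hen2-2 at 4 °C, 0.473% (0.458 to 0.488) in hen2-2 at 22 °C, 0.169% (0.160 to 0.177) in spt16-1, 0.158% (0.149 to 0.167) in ssrp1-2, 0.132% (0.124 to 0.141) in wild type at 4 °C and 0.221% (0.211 to 0.231) in wild type at 22 °C. The intervals of both hen2-2 lists lay above those of the other lists. The totals are also given as RPM, read pairs per 1000000 of the list. A few loci held much of each total, since the 3 largest loci of a list carried 29.6 to 41.7% of its non-coding read pairs. Without the loci AT1G05163 and AT4G04595, the largest in hen2-2, the share was 0.444% in hen2-2 at 4 °C, 0.318% in hen2-2 at 22 °C, 0.132% in wild type at 4 °C and 0.220% in wild type at 22 °C. In whole seedlings, more RNA per cell and more cells that hold an RNA cannot be told apart.

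**Figure D1:**
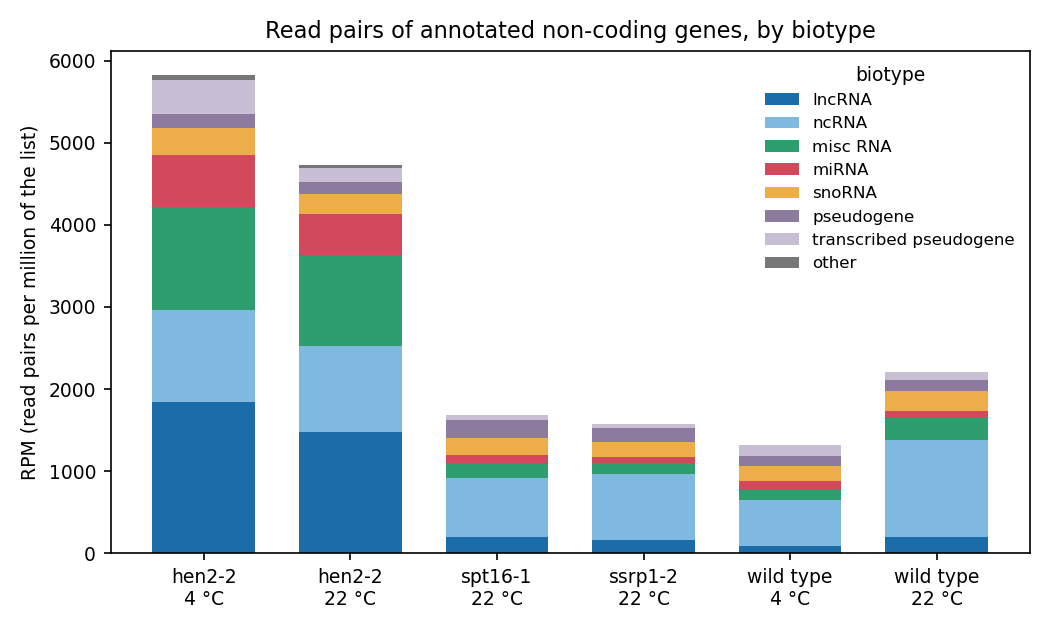
RPM (vertical axis) at annotated non-coding genes, stacked by biotype, in the 6 lists (horizontal axis), each a pool of 2 libraries. The hen2-2 columns reach 5830 RPM at 4 °C and 4726 RPM at 22 °C, against 1323 to 2212 RPM in the other 4 lists.

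The lists differed in depth and in a few marker genes. They held 410655 to 924907 read pairs, with hen2-2 at 4 °C the smallest. The cold marker CBF2 had 655 and 1039 read pairs in the lists of hen2-2 and wild type at 4 °C and none in the 22 °C lists. The cold gene COR15A did not separate the temperatures in this way. It was at 69.6 RPM in wild type at 4 °C against 65.2 RPM at 22 °C, and at 90.1 against 37.8 RPM in hen2-2. In spt16-1 and ssrp1-2 it was at 83.3 and 82.2 RPM. The leaf marker CAB1 was at 3188 to 4029 RPM in the 6 lists. The leaf marker RBCS1A differed more between lists, at 9414 RPM in hen2-2 against 1443 RPM in wild type at 4 °C, 5664 RPM in hen2-2 against 5048 RPM in wild type at 22 °C, 2339 RPM in spt16-1 and 1563 RPM in ssrp1-2, and its part in the results was not tested. HEN2 itself had no cluster in either hen2-2 list, but only 11 read pairs in spt16-1, 6 in ssrp1-2, none in wild type at 4 °C and 4 in wild type at 22 °C, too few to check the labels. SPT16 had 31 read pairs in spt16-1 against 30 in wild type at 22 °C, so it did not check the spt16-1 label. SSRP1 had none in ssrp1-2 against 5 in wild type at 22 °C, but it also had none in hen2-2 at 4 °C and 3 in hen2-2 at 22 °C.

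Loci were often seen in only some lists. There were 123 in hen2-2 at 4 °C, 143 in hen2-2 at 22 °C, 91 in spt16-1, 77 in ssrp1-2, 65 in wild type at 4 °C and 81 in wild type at 22 °C. In all, 108 of the 254 loci (42.5%) had clusters in 1 or both hen2-2 lists and in no other list, and 721 of 14383 coding genes with a cluster (5.01%) did. Of the 108 loci, 38 had clusters in both hen2-2 lists. Another 19 loci (7.48%) had clusters in all 6 lists, against 46.1% of coding genes. The coding genes were not matched for read pairs in these comparisons, and the part of low counts was not tested. The median over the non-coding loci seen in a list was 6 to 8 read pairs. Clusters with 3 read pairs, the fewest that the lists hold, were 22.9 to 34.4% of the non-coding clusters of a list, and a locus under that minimum is not listed. Clusters were also removed where TSS-seq did not support their start, and the part of that filter in which loci are listed was not tested.

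The biotypes differed in how many loci were seen and where. Clusters lay at 74 of 3480 lncRNA genes, 48 of 221 ncRNA genes, 26 of 508 misc_RNA genes, 25 of 287 snoRNA genes and 19 of 326 microRNA (MIR) genes. They lay at 33 of 3917 pseudogenes, 26 of 926 transcribed pseudogenes, 2 of 79 antisense RNA genes and 1 of 625 tRNA genes, and at none of the 82 spliceosomal and other small nuclear RNA genes or the 4 rRNA genes. The loci seen in hen2-2 lists only were 20 of the 25 snoRNA loci, 15 of the 19 MIR loci and 41 of the 74 lncRNA loci, but 11 of the 48 ncRNA loci and 1 of the 33 pseudogenes. The tRNA locus, AT1G79980, had 1 cluster of 573 nt with 3 read pairs in ssrp1-2. The libraries took capped RNA primed with oligo(dT), so an RNA without a cap or a poly(A) tail is not seen.

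Non-coding clusters in hen2-2 were short. The share of clusters that spanned under 200 nt of the genome was 43.4% (37.2 to 49.8) in hen2-2 at 4 °C, 32.7% (27.6 to 38.1) in hen2-2 at 22 °C, 1.2% in spt16-1, 1.4% in ssrp1-2, 0.8% in wild type at 4 °C and 1.2% in wild type at 22 °C, and the 4 lowest shares stand for 1 or 2 clusters each. At coding genes the shares were 10.5%, 7.32%, 1.72%, 1.5%, 1.31% and 2.13% in the same order of lists. The median span of a non-coding cluster was 236 nt in hen2-2 at 4 °C, 346 nt in hen2-2 at 22 °C and 645 to 876 nt in the other lists. Few clusters lay near the limit of 200 nt, with 5 in the 20 nt below it and 9 in the 20 nt from it upwards in hen2-2 at 4 °C, and 3 and 5 in hen2-2 at 22 °C. At the 108 loci seen in hen2-2 only, 57.6% of clusters at 4 °C and 49.1% at 22 °C were under 200 nt. At the 19 loci seen in all lists, the share was 21.3% in hen2-2 at 4 °C and 16.4% in hen2-2 at 22 °C, against 1.72% in wild type at 4 °C and 0 in wild type at 22 °C. The share in hen2-2 at 22 °C was 39.2% after the list was thinned to the total of hen2-2 at 4 °C.

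**Figure D2:**
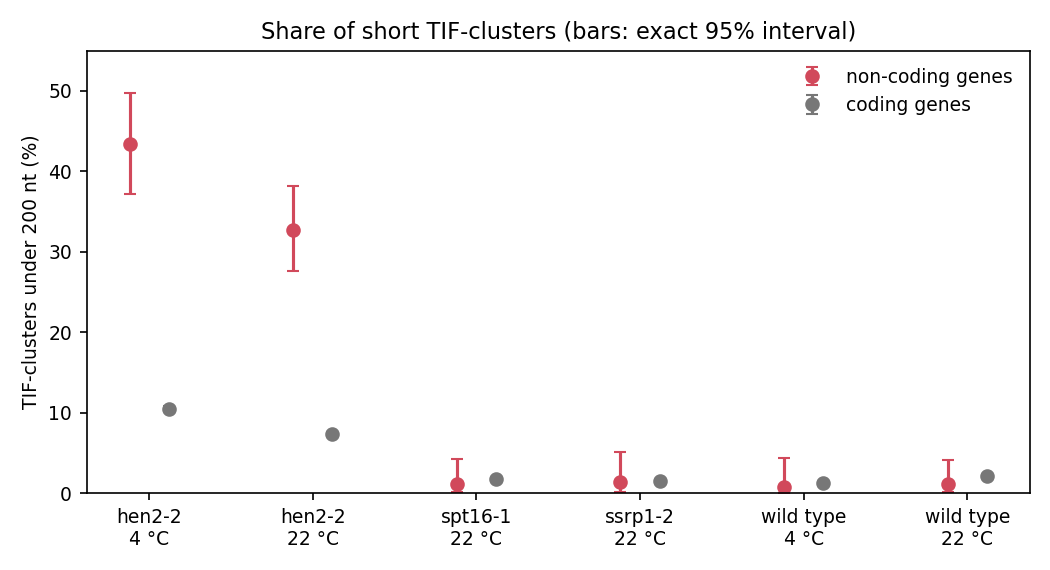
Percent of TIF-clusters that span under 200 nt (vertical axis) at non-coding genes (red) and coding genes (grey) in the 6 lists (horizontal axis), with exact 95% binomial intervals. Non-coding clusters stand at 43.4% and 32.7% in the hen2-2 lists and at 0.8 to 1.44% in the other lists.

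Among biotypes other than miRNA, snoRNA, snRNA, tRNA and rRNA, starts lay nearer to the annotation than ends. In hen2-2 at 22 °C, 49.2% of these clusters started within 50 nt of the annotated start and 22.5% ended within 50 nt of the annotated end, against 66.4% and 36.2% in wild type at 22 °C. In hen2-2 at 4 °C the shares were 54.5% and 14.4%, against 59.6% and 37.5% in wild type at 4 °C. The clusters under 200 nt in hen2-2 ended a median of 432 nt before the annotated end at 4 °C and 430 nt before it at 22 °C.

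A search for the hexamer AATAAA, on the strand of the transcript, in the last 50 nt of the most used cluster of each gene found it at 5.69% of non-coding loci in hen2-2 at 4 °C, 4.90% in hen2-2 at 22 °C, 11.0% in spt16-1, 13.0% in ssrp1-2, 13.8% in wild type at 4 °C and 7.41% in wild type at 22 °C. Coding genes had it at 12.1 to 12.8% in the 6 lists, and 4.95% of all 2382925 windows of 50 nt tiled over the genome hold it. On the other strand the non-coding shares were 6.99 to 12.1%. The intervals of the non-coding shares on the transcript's strand overlapped one another, with 2.32 to 11.4% in hen2-2 at 4 °C and 6.53 to 24.7% in wild type at 4 °C. In the last 30 bases of a largest cluster it occurred at 1 locus named here, the defensin-like transcribed pseudogene AT2G16367 (chr2:7079650-7080075, minus strand), shown for hen2-2 at 4 °C with the hexamer in capitals.
AT2G16367, chr2:7079677-7079706, minus strand, last 30 bases of the cluster: cagAATAAAaggagcttttttcgtatgacc
A match is a description of these letters and does not show that they were used.

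To compare hen2-2 with wild type at 22 °C, RPM were taken for the 83 loci with at least 10 read pairs over both lists, and a locus with a ratio of at least 2 or at most 1/2 was called. In hen2-2, 44 of the 83 loci were higher and 13 were lower, against 17.9% higher and 12.7% lower among all 9365 coding and non-coding genes. That is 53.0% and 15.7% of the non-coding loci. The median log2 ratio was 1.52 over the loci and 0.09 over all genes. Called higher were 13 of 19 lncRNA loci, 7 of 8 MIR loci, 6 of 8 snoRNA loci, 10 of 24 ncRNA loci and none of 10 pseudogenes. In 34 of the 83 loci wild type had no cluster, against 3.72% of all genes. These loci passed the minimum through hen2-2 alone, so with wild type set at 3 read pairs the rule called all 34 higher. Among the loci called higher, AT5G18255 was the only lncRNA with a cluster in wild type. MIR398b and MIR398c were the only MIR loci with one, and AtsnoR94 (AT3G05715) the only snoRNA. A locus without a cluster was set at 3 read pairs, and the fold is then given as "at least". That floor is not a strict bound, because the authors removed clusters under 3 read pairs and a locus may hold several.

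**Figure D3:**
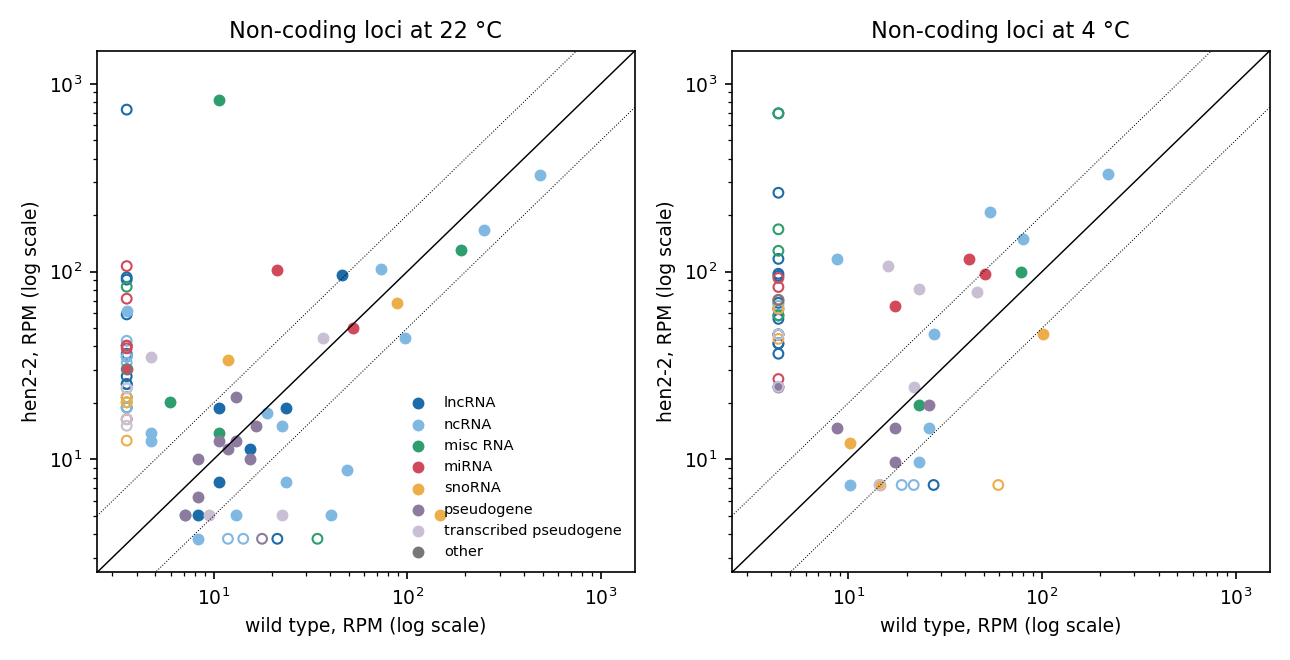
RPM in hen2-2 (vertical, log scale) against wild type (horizontal, log scale) at 22 °C (left) and 4 °C (right), 1 point per non-coding locus, coloured by biotype. Open points have no cluster in 1 list and are drawn at 3 read pairs, the solid line marks equal values and the dotted lines mark 2-fold. At 22 °C, 44 points lie on or above the upper dotted line and 13 on or below the lower one, and at 4 °C AT1G05163 and AT4G04595 share 1 position.

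The largest differences were at a pair of loci of unknown function. AT1G05163 (chr1:5297847-5298571, minus strand), an lncRNA gene opposite the coding gene AT1G15410, had 286 read pairs in hen2-2 at 4 °C, 579 in hen2-2 at 22 °C and none in the other 4 lists. The ratio at 22 °C was at least 205-fold and that at 4 °C at least 160-fold. Its clusters spanned 57 to 305 nt, and all of them also overlapped the ncRNA gene AT1G15405 (chr1:5297875-5298166), which lies inside AT1G05163 on the same strand. The largest cluster was 150 nt long in both lists, with 117 read pairs at 4 °C and 258 at 22 °C. It started 10 nt upstream of the annotated start of AT1G15405 at 4 °C and 13 nt upstream at 22 °C, but 395 and 392 nt inside AT1G05163, so the read pairs may be counted for either gene. None of the clusters reached the coding gene on the other strand.

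AT4G04595 (chr4:1476284-1476750, plus strand), a misc_RNA gene, had 286 read pairs in hen2-2 at 4 °C, 651 in hen2-2 at 22 °C, 3 in ssrp1-2, 9 in wild type at 22 °C and none in spt16-1 or wild type at 4 °C. The ratio of hen2-2 to wild type was 76.8-fold at 22 °C (40.2 to 169) and at least 160-fold at 4 °C. At 22 °C 1 cluster of 309 nt held 582 of the hen2-2 read pairs, and the only cluster in wild type had the same start and ended 3 nt before it. At 4 °C the hen2-2 read pairs were spread over 10 clusters of 69 to 312 nt.

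Further lncRNA and misc_RNA loci had clusters in hen2-2 alone. AT1G09797 (chr1:29427802-29428566) had 39 read pairs in hen2-2 at 4 °C and 72 in hen2-2 at 22 °C, AT1G09943 (chr1:30081136-30081437) had 53 and 66, and AT3G59068 (chr3:21832192-21833041), opposite the coding gene AT3G59070, had 23 and 74. All 3 had none in the other lists. At 22 °C these were ratios of at least 25.5-fold, 23.4-fold and 26.2-fold, but the log2 ratio of AT3G59068, 4.71 here, was 2.95 with the lists thinned to 410655 read pairs. The antisense RNA gene AT4G00975, opposite AT4G00980, had 29 read pairs in hen2-2 at 4 °C and 24 in hen2-2 at 22 °C, and the coding genes on the other strand of AT3G59068 and AT4G00975 had no cluster in any list.

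GUT15 (AT2G18440, chr2:7994941-7997239, minus strand), an ncRNA gene named for its unstable transcript and picked here after its values were seen, had clusters in every list. It had 48 read pairs in hen2-2 at 4 °C, 49 in hen2-2 at 22 °C, 6 in spt16-1, 7 in ssrp1-2, 6 in wild type at 4 °C and 3 in wild type at 22 °C. The ratio of hen2-2 to wild type was 17.3-fold (5.59 to 87.0) at 22 °C and 13.4-fold (5.75 to 38.4) at 4 °C. In hen2-2 at 22 °C, 26 read pairs formed a cluster of 1694 nt, and clusters of 81 and 55 nt from the same start held 7 and 4.

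At 4 °C, 37 of 61 loci were higher in hen2-2 than in wild type and 6 were lower, against 12.3% higher and 21% lower among all 7893 genes. In 30 of the 61 loci wild type had no cluster, against 1.75% of all genes. These loci passed the minimum of 10 read pairs through hen2-2 alone, so with wild type set at 3 the rule called all 30 higher. The floor was 7.31 RPM in hen2-2 and 4.35 RPM in wild type. AT4G40065, with none against 10, was not called lower (ratio 0.504). The median log2 ratio, which includes these loci, was 2.49 over the loci and -0.25 over all genes. Called higher were 14 of 15 lncRNA loci, 6 of 7 MIR loci and 4 of 6 misc_RNA loci. All of the lncRNA and misc_RNA loci called higher had no cluster in wild type at 4 °C. Among the MIR loci called higher, only MIR398b and MIR398c had one. Of the snoRNA loci 2 of 6 were higher and 2 lower, and the 2 higher ones also lacked a wild-type cluster. Coding genes with at least 50 read pairs over both lists had a median log2 ratio of -0.16 in this comparison, and -0.16 in that of hen2-2 at 4 °C with 22 °C. The comparisons share lists, because wild type at 22 °C is the reference in 4 of the 6 and each hen2-2 list enters 2, so they are not independent.

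Most read pairs of primary microRNAs ended early in hen2-2. Clusters lay at 14 MIR loci in hen2-2 at 4 °C (263 read pairs), 15 in hen2-2 at 22 °C (401), 3 in spt16-1 (90), 4 in ssrp1-2 (52), 3 in wild type at 4 °C (76) and 4 in wild type at 22 °C (69). Of these read pairs, 188 in hen2-2 at 4 °C (71.5%) and 319 in hen2-2 at 22 °C (79.6%) belonged to clusters that ended before the end of the annotated hairpin. In the other 4 lists there were none, and every MIR cluster there ended past the hairpin. In hen2-2, 85 read pairs at 7 loci at 4 °C and 211 read pairs at 9 loci at 22 °C belonged to clusters that ended inside the first mature arm. Ends within 20 nt were joined into 1 cluster, and an arm spans 20 to 22 nt. Read pairs are therefore placed here and below by the end of their cluster, and single ends may lie outside the arm. Some of these clusters ended at base 1 of the arm, such as those of MIR408 (9 read pairs) and MIR162b (8) at 22 °C.

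**Figure D4:**
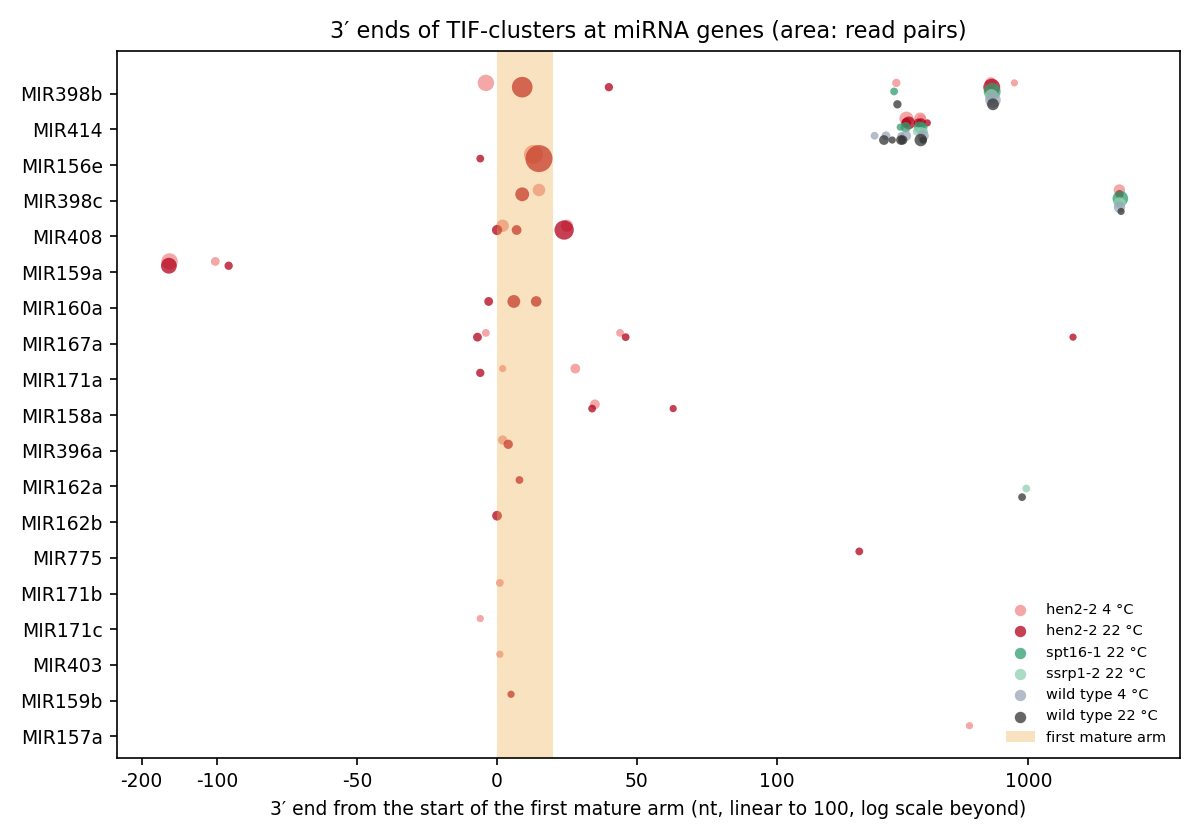
Position of the 3′ end of each TIF-cluster at 19 MIR loci (rows), in nt from the start of the first mature arm (horizontal axis, linear to 100 nt and log scale beyond), coloured by list, with point area by read pairs. The shaded band is the arm. The points of spt16-1, ssrp1-2 and wild type all lie to the right of 100 nt, and most hen2-2 points lie near or in the band.

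MIR156e (chr5:3867207-3867313), whose mature microRNA targets SPL transcription factors that drive the change of growth phase, had 38 read pairs in hen2-2 at 4 °C, 85 in hen2-2 at 22 °C and none elsewhere. These were ratios of at least 21.3-fold at 4 °C and 30.1-fold at 22 °C. At 22 °C a cluster of 179 nt with 81 read pairs ended after base 16 of the arm, as in the window above. At 4 °C the cluster that held the 38 read pairs ended after base 14. MIR408 (chr2:19319814-19320031), whose product targets copper proteins, had 29 and 57 read pairs in hen2-2 at 4 °C and 22 °C and none in the other lists. At 22 °C 40 of them ended between the arms and 17 in the first arm.

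The copper-responsive pair MIR398b and MIR398c, whose product targets copper superoxide dismutases, showed short and long transcripts from the same starts. MIR398b (chr5:4691022-4691137) had 48 read pairs in hen2-2 at 4 °C, 81 in hen2-2 at 22 °C, 34 in spt16-1, 17 in ssrp1-2, 29 in wild type at 4 °C and 18 in wild type at 22 °C. Its ratio of hen2-2 to wild type was 4.78-fold (2.84 to 8.46) at 22 °C and 2.78-fold (1.72 to 4.57) at 4 °C. In hen2-2 at 22 °C a cluster of 70 nt held 46 read pairs and one of 773 nt held 30, and the largest cluster was 783 nt in wild type at both temperatures and 778 nt in spt16-1. The starts of these 5 clusters lay within 5 nt. In hen2-2 at 4 °C a cluster of 60 nt held 28 read pairs and ended 4 nt before the arm, and one of 768 nt held 12.

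MIR398c (chr5:4694694-4694808) had 27 read pairs in hen2-2 at 4 °C, 24 in hen2-2 at 22 °C, 25 in spt16-1, 16 in ssrp1-2, 12 in wild type at 4 °C and 3 in wild type at 22 °C. In hen2-2 at 22 °C 19 of the 24 were in a cluster of 86 nt and 5 in one of 2379 nt, and at 4 °C 15 of the 27 were in a cluster of 98 nt and 12 in one of 2380 nt. The 4 lists of the other genotypes had only clusters of 2375 to 2434 nt. The ratio to wild type at 22 °C was 8.49-fold (2.58 to 44.1) in hen2-2, 7.60-fold (2.32 to 39.3) in spt16-1 and 6.38-fold (1.83 to 34.1) in ssrp1-2, all resting on 3 read pairs in wild type. These loci lie near each other on chromosome 5 and share the arm sequences shown, but reads that aligned to several places had been removed.

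The other MIR loci had fewer read pairs. MIR160a, whose product targets auxin response factors, had 32 read pairs in hen2-2 at 22 °C and none in any other list, 26 of them ending in the first arm. MIR159a, whose product targets MYB factors, had 34 in hen2-2 at 4 °C and 31 in hen2-2 at 22 °C, and its largest cluster ended 176 nt before the end of the hairpin at 4 °C and 177 nt before it at 22 °C. MIR396a, whose product targets growth-regulating factors, had 7 in each hen2-2 list, all ending in the first arm, and the ends at MIR158a, MIR167a and MIR171a fell before, in, between or past the arms with at most 8 read pairs a cluster. Another 7 loci (MIR157a, MIR159b, MIR162b, MIR171b, MIR171c, MIR403 and MIR775) had 3 to 8 read pairs, each in 1 hen2-2 list. MIR162a was seen with 4 read pairs each in hen2-2 at 22 °C, ssrp1-2 and wild type at 22 °C, and the cluster ended in the first arm in hen2-2 but 868 nt past the hairpin in ssrp1-2 and 831 nt past it in wild type. MIR414 was an exception, with 40 read pairs in each hen2-2 list, 31 in spt16-1, 15 in ssrp1-2, 35 in wild type at 4 °C and 44 in wild type at 22 °C, and all of its clusters ended 162 to 314 nt past the hairpin.

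Of the 25 snoRNA loci, 17 held CTGA, the D box letters, in the last 20 bases of the gene on its own strand, and 4 held ACA just before the last 3 bases. Among all 287 annotated snoRNA genes these were 62.4% and 18.1%. The last 30 bases of the 4 snoRNA loci described next are shown with these letters in capitals, from the genome (TAIR10.1).
AtsnoR102, chr1:25926968-25926997, minus strand: taatttgtctgagaaaaggcgaatCTGAgt
AtsnoR90b, chr2:14163946-14163975, plus strand: tacctgcagaccggtttagataaaACAtac
AtsnoR94, chr3:11154314-11154343, plus strand: caaagcagagacgttctttgccctACAttt
AT1G03746, chr1:937401-937430, minus strand: aaatttcaactcgctacgttctttCTGAtt
Of the 17 loci with CTGA, 15 had clusters in hen2-2 lists only, near the share among all snoRNA loci, 20 of 25.

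Most snoRNA transcripts reached past the annotated gene at both ends. In the hen2-2 lists the clusters started a median of 121 nt upstream at 4 °C and 137.5 nt upstream at 22 °C, and ended a median of 62 and 76 nt past the gene. AT1G03746, chosen after its values were seen, had 26 read pairs in hen2-2 at 4 °C, 16 in hen2-2 at 22 °C and none elsewhere, and its 22 °C cluster of 245 nt started 91 nt upstream and ended 69 nt past the gene of 85 nt. AtsnoR94 (AT3G05715) had 18 read pairs in hen2-2 at 4 °C, 27 in hen2-2 at 22 °C, 13 in spt16-1, 6 in ssrp1-2, none in wild type at 4 °C and 10 in wild type at 22 °C, a ratio of 2.87-fold (1.34 to 6.64) at 22 °C. Its largest clusters were 189 to 201 nt in the 5 lists that had it.

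AtsnoR102 (AT1G09027, chr1:25926968-25927100) went the other way. It had none in hen2-2 at 4 °C, 4 read pairs in hen2-2 at 22 °C, 83 in spt16-1, 56 in ssrp1-2, 41 in wild type at 4 °C and 124 in wild type at 22 °C. It was 29.2-fold lower in hen2-2 than in wild type at 22 °C (11.1 to 109) and at least 8.13-fold lower at 4 °C. Its clusters were 347 to 376 nt long, started 212 to 230 nt upstream of the snoRNA and ended 2 to 18 nt past it in every list that had it. AtsnoR90b (AT2G08585) lay in a transcript of 2253 to 2376 nt with 19 read pairs in hen2-2 at 4 °C, 54 in hen2-2 at 22 °C, 95 in spt16-1, 62 in ssrp1-2, 70 in wild type at 4 °C and 75 in wild type at 22 °C, and was 2.19-fold lower (1.31 to 3.86) in hen2-2 at 4 °C than in wild type at 4 °C.

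Several ncRNA loci were also lower in hen2-2. TAS3 (AT3G17185, chr3:5861491-5862437), a precursor of trans-acting small interfering RNAs against auxin response factors, had no read pair in hen2-2 at 4 °C, 7 in hen2-2 at 22 °C, 25 in spt16-1, 8 in ssrp1-2, 15 in wild type at 4 °C and 41 in wild type at 22 °C. It was 5.52-fold lower (2.45 to 14.6) in hen2-2 than in wild type at 22 °C, and 4.29-fold lower (1.98 to 10.6) in ssrp1-2. TAS1A, TAS1C and TAS2 had no read pair in either hen2-2 list and at most 10 in any other, and the 4 precursors together had 0 in hen2-2 at 4 °C, 7 in hen2-2 at 22 °C, 32 in spt16-1, 22 in ssrp1-2, 24 in wild type at 4 °C and 64 in wild type at 22 °C. TAS1B, TAS3b and TAS4 had no cluster in any list.

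AT4G12917 (chr4:7563157-7563847) had none in hen2-2 at 4 °C, 4 read pairs in hen2-2 at 22 °C, 20 in spt16-1, none in ssrp1-2, 9 in wild type at 4 °C and 34 in wild type at 22 °C. It was 8.01-fold lower (2.86 to 31.1) in hen2-2 at 22 °C and at least 9.48-fold lower in ssrp1-2. AT1G09605 (chr1:20006460-20007015), a misc_RNA gene, had none in either hen2-2 list, 7 in spt16-1, 13 in ssrp1-2, none in wild type at 4 °C and 29 in wild type at 22 °C, and was at least 9.11-fold lower in hen2-2 at 22 °C.

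Some of the largest loci of the other lists were within 2-fold of wild type in hen2-2. AT3G12965 (chr3:4136961-4137674, minus strand), an ncRNA gene of unknown function, had the most read pairs of any non-coding locus in the spt16-1, ssrp1-2 and wild-type lists, but not in the hen2-2 lists. It had 136 read pairs in hen2-2 at 4 °C, 261 in hen2-2 at 22 °C, 269 in spt16-1, 200 in ssrp1-2, 152 in wild type at 4 °C and 408 in wild type at 22 °C. This was 331, 329, 291, 284, 220 and 484 RPM in that order of lists, and hen2-2 differed from wild type by less than 2-fold at both temperatures. The ncRNA gene AT1G79075 did not keep within 2-fold, since it was at 207 RPM in hen2-2 against 53.6 RPM in wild type at 4 °C, 3.86-fold higher (2.6 to 5.84), and at 167 RPM in hen2-2 against 249 RPM in wild type at 22 °C, 1.49-fold lower (1.19 to 1.86). AT1G10682 (chr1:3544913-3545614) was at 53.0 to 149 RPM and AT1G04107 (chr1:471127-471498) at 78.2 to 190 RPM in the 6 lists, and both were within 2-fold of wild type in hen2-2 at both temperatures.

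**Figure D5:**
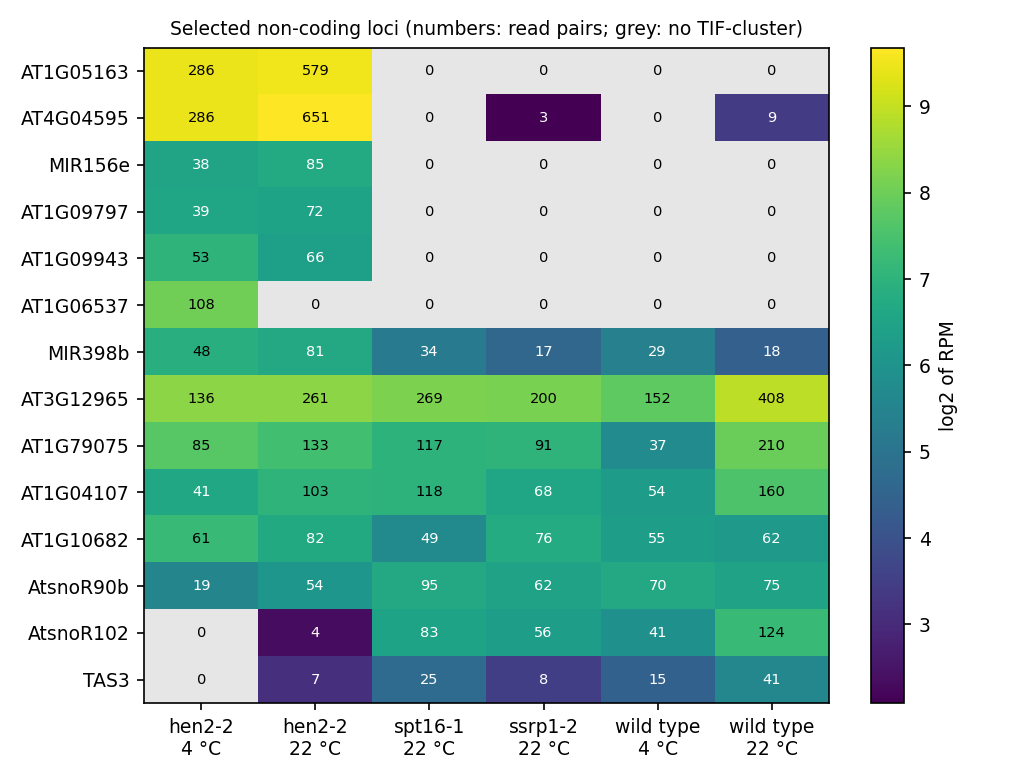
Read pairs (numbers) and log2 of RPM (colour) at 14 non-coding loci (rows) in the 6 lists (columns), with grey where a locus had no cluster. The upper rows, such as AT1G05163 with 286 and 579 read pairs, have values in hen2-2 only or mostly, and AtsnoR102 and TAS3 in the lowest rows have 0 to 7 in hen2-2 and 8 to 124 in the other lists.

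The FACT mutants were compared with wild type at 22 °C in the same way. In spt16-1, 12 of 60 loci were higher and 14 lower, against 19% higher and 11.1% lower among all 9508 genes, and the median log2 ratio was -0.28 over the loci and 0.13 over all genes. The share called higher, 20%, was near that of all genes. In ssrp1-2, 6 of 46 loci were higher and 16 lower, against 16.2% higher and 15% lower among all 8974 genes, with medians of -0.51 and 0.08. Among pseudogenes 6 of 14 were higher and 3 lower in spt16-1, and none of 8 was higher and 1 lower in ssrp1-2. Of those higher in spt16-1, MUG1, MUG4, AT2G04460 and AT3G14800 had 11 to 13 read pairs there and none in wild type. They passed the minimum through spt16-1 alone, and the floor of 3 then made them higher. The lists held 924907 read pairs in spt16-1 and 705245 in ssrp1-2, and the part of depth was not tested.

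Beside MIR398c, AT5G24735 (chr5:8468331-8469262), an ncRNA gene, was higher in both FACT mutants. It had 3 read pairs in hen2-2 at 4 °C, 6 in hen2-2 at 22 °C, 21 in spt16-1, 25 in ssrp1-2, none in wild type at 4 °C and 3 in wild type at 22 °C, ratios of 6.38-fold (1.91 to 33.4) in spt16-1 and 9.96-fold (3.04 to 51.6) in ssrp1-2. AT2G14878 (chr2:6392167-6393042) had 34 read pairs in hen2-2 at 22 °C, 6 in spt16-1, 42 in ssrp1-2 and none in hen2-2 at 4 °C or either wild type list, at least 16.7-fold higher in ssrp1-2 than in wild type. The pseudogenes AT4G08220 and AT3G42806 had 26 read pairs each in spt16-1, against 7 and 11 in wild type at 22 °C, ratios of 3.39-fold (1.43 to 9.24) and 2.15-fold (1.03 to 4.83). AT3G42806 was not higher after the lists were thinned to 1 depth, with a log2 ratio of -0.21. The ncRNA AT1G23052 had 17 read pairs in ssrp1-2 against 7 in wild type at 22 °C, 2.90-fold higher (1.14 to 8.28). Lower in ssrp1-2 were the ncRNA genes AT5G03285, with none against 20, at least 5.58-fold, and AT2G42485, with 3 against 19, 5.30-fold (1.56 to 28.0). Whether the difference in spt16-1 and ssrp1-2 was the same was not tested at any locus.

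The effect of 3 h at 4 °C was examined in both genotypes. In wild type, 10 of 48 loci were higher at 4 °C than at 22 °C and 22 were lower, against 17.9% higher and 15.7% lower among all 8899 genes. That is 45.8% of the loci lower. At 10 of the 48 loci wild type had no cluster at 4 °C, against 3.71% of all genes. These loci were set at 3 read pairs and all of them were called lower. The share over all genes was not matched for read pairs, and a part of depth in the difference was not tested. The median log2 ratio was -0.22 over the loci and 0.06 over all genes. Lower were 8 of 15 ncRNA loci, 5 of 10 pseudogenes, 3 of 7 lncRNA loci and 3 of 4 misc_RNA loci.

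AT1G79075 (chr1:29745939-29746842, plus strand), an ncRNA gene whose start lies 124 nt from that of the coding gene AT1G79070 on the other strand, had 37 read pairs in wild type at 4 °C against 210 in wild type at 22 °C, 4.65-fold lower (3.26 to 6.78). It had 85 read pairs in hen2-2 at 4 °C against 133 in hen2-2 at 22 °C, which was 207 RPM at 4 °C against 167 RPM at 22 °C. AT3G12965 was 2.20-fold lower (1.82 to 2.66) and AT1G04107 2.43-fold lower (1.77 to 3.37) in wild type at 4 °C. The lncRNA AT5G18255 (chr5:6035619-6037641), opposite AT5G18260, had none in wild type at 4 °C against 39 in wild type at 22 °C, at least 10.6-fold lower, and AT4G20362, opposite the elongation factor gene RABE1b, had none against 20, at least 5.46-fold lower. RABE1b itself had 1067 read pairs in wild type at 4 °C against 1548 at 22 °C.

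The transcribed pseudogene AT1G79245 (chr1:29804594-29809514, minus strand) was higher in the cold in both genotypes. It had 32 read pairs in wild type at 4 °C against none at 22 °C, at least 13.0-fold higher, and 32 in hen2-2 at 4 °C against 12 at 22 °C, 5.16-fold higher (2.59 to 11.0). In wild type at 4 °C its clusters spanned 3534 to 4772 nt. In hen2-2 at 4 °C, clusters of 3866 to 3984 nt held 20 read pairs and clusters of 43 to 263 nt from the same starts held 12, and in hen2-2 at 22 °C all 12 read pairs were in clusters of 59 and 171 nt. AT2G16367 had 16 read pairs in wild type at 4 °C against 4 at 22 °C, 4.89-fold higher (1.58 to 20.1), and 33 in hen2-2 at 4 °C against 28 at 22 °C, 2.28-fold higher (1.34 to 3.92).

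In hen2-2, 22 of 81 loci were higher at 4 °C than at 22 °C and 11 were lower, against 11.8% higher and 21.8% lower among all 8464 genes. With ratios scaled to the median of coding genes in place of the list totals, 29 were higher and 8 lower. The floor of 3 read pairs was 7.31 RPM at 4 °C and 3.78 RPM at 22 °C, which made lower calls harder to reach. A locus with 10 read pairs against none was called higher (AT1G05135, at least 6.45-fold). One with none against 10 was not called lower (AT4G13495, ratio 0.58). The same rule was used over all genes. The median log2 ratio was 0.20 over the loci and -0.27 over all genes. Of the transcribed pseudogenes 5 of 7 were higher and none lower, and of the lncRNA loci 6 of 19 were higher and 5 lower.

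AT1G06537 (chr1:11672237-11672483, minus strand), an lncRNA gene, had 108 read pairs in hen2-2 at 4 °C and none in the other 5 lists, at least 69.6-fold higher than in hen2-2 at 22 °C. Its clusters were 66 to 92 nt long, and it starts 283 nt from the coding gene AT1G32360 on the other strand, which had no read pair in either hen2-2 list and 6 to 18 in the other lists. AT5G08155 (chr5:21990623-21990808) had 69 read pairs in hen2-2 at 4 °C against 8 at 22 °C, 16.7-fold higher (8.01 to 40.2), and AT4G06810 (chr4:10180117-10180748) had 26 against 3, 16.8-fold higher (5.14 to 86.5). AT5G07325 had 28 and AT4G03315 24 read pairs in hen2-2 at 4 °C and none in any other list, at least 18.1-fold and 15.5-fold higher. Lower at 4 °C were AT2G14878 with none against 34, MIR160a with none against 32 and AT3G00980 with none against 28 in hen2-2 at 22 °C, at least 5.86-fold, 5.51-fold and 4.83-fold. These 3 loci had no cluster in wild type at either temperature.

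Some of the loci lay close to coding genes, and the share among all 10455 annotated non-coding genes was not counted. Of the 254, 58 overlapped a coding gene on the other strand, 34 started within 500 nt of the start of a coding gene on the other strand without overlapping it, and 162 did neither. Seen in hen2-2 lists only were 23 of the 34 divergent loci, 19 of the 58 opposite ones and 66 of the 162 others. The divergent loci had 655 read pairs in hen2-2 at 4 °C and 956 in hen2-2 at 22 °C, against 40 in wild type at 4 °C and 245 in wild type at 22 °C, and AT4G04595 alone supplied 286 and 651 of the hen2-2 read pairs. AT1G79075 alone supplied 37 and 210 of those in wild type. The coding partner had no cluster in any list at 30 of the 58 opposite and 14 of the 34 divergent loci.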

How the data were processed

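TIF-seq libraries from whole seedlings were analysed as 6 deposited cluster lists. The authors selected capped RNA, primed it with oligo(dT), trimmed with cutadapt and UMI-tools, aligned to TAIR10 with STAR 2.6.1c, kept unique alignments and 1 read pair per molecular identifier, merged both libraries of a group, joined ends within 20 nt, and removed clusters under 3 read pairs, those ending where the genome has a run of A, and those whose start TSS-seq did not support. The study names published TSS-seq for this filter and also made hen2-2 TSS-seq at both temperatures to correct the same bias. Which set filtered which list is not given in the sources used here. A filter that differs by genotype could change which loci are listed, those seen only in hen2-2 included, and this was not tested. The deposited values are raw counts of read pairs per cluster, used as RPM (read pairs per 1000000 of the list).

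Clusters were assigned with Python 3.11.15 and pandas 2.3.3 to RefSeq TAIR10.1 genes (Araport identifiers), and a cluster over several non-coding genes went to the one it overlapped most. Positions are 1-based and spans include introns. Share intervals are exact Clopper-Pearson and ratio intervals exact conditional binomial (SciPy 1.17.1). Scripts were tested on simulated data. Totals of 410655 to 924907 read pairs set the precision.

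Named loci were the 3 largest of each biotype (at least 10 read pairs), the 5 highest and 3 lowest ratios past 2-fold of each comparison (at least 20 read pairs), and MIR, TAS and other known genes the annotation names. IPS1, AT4, COOLAIR, SVALKA, APOLO, ELENA1, FLORE and HID1 are not named in it. Members and lists were chosen with earlier results of these data known. The 6 TSS-seq samples were not used here. Alternatives were the overlap, the cluster minimum, the depth, the biotypes, the fold, the locus minimum and the scaling.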

Additional observations from a re-analysis of the deposited data

Results flagged for a closer look

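The transcribed pseudogene AT2G20724 (chr2:8932580-8933262, minus strand) differed in opposite directions with temperature in the 2 genotypes. It had 44 read pairs in hen2-2 at 4 °C against 35 at 22 °C, a log2 ratio of 1.28 in RPM, and 11 in wild type at 4 °C against 31 at 22 °C, a log2 ratio of -1.21. It had 11 in spt16-1 and 9 in ssrp1-2. The difference between the genotypes was not tested, since each group is 1 pooled list.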

How the results depend on the processing

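No paired analysis was possible because each list pools its replicates, and for the same reason no replicate could be left out. Of 326 values of 45 named results under the alternatives, 323 kept their direction and stayed close, 2 moved and 1 reversed. AT3G42806 (spt16-1 over wild type 22 °C) had a log2 ratio of -0.21 with the lists thinned to 410655 read pairs and 2.80 with clusters of at least 5 read pairs, and AT3G59068 (hen2-2 over wild type, 22 °C) had 2.95 after thinning. Of 132 counts and shares, 60 moved, and the causes were not tested.

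The percent of read pairs at non-coding loci is given for hen2-2 4 °C, hen2-2 22 °C, spt16-1, ssrp1-2, wild type 4 °C and wild type 22 °C in that order. It was 0.483, 0.405, 0.138, 0.131, 0.102 and 0.188 with at least 1/2 of the cluster inside the gene. It was 0.550, 0.448, 0.151, 0.134, 0.109 and 0.206 with clusters of at least 5 read pairs. Without clusters opposite a coding gene it was 0.548, 0.427, 0.135, 0.128, 0.105 and 0.190. Without pseudogenes it was 0.525, 0.441, 0.140, 0.136, 0.107 and 0.198. Without clusters over several non-coding genes, which leaves out AT1G05163, it was 0.480, 0.372, 0.155, 0.146, 0.119 and 0.211. Thinned to the total of hen2-2 4 °C, it was 0.449 in hen2-2 22 °C, 0.157 in spt16-1, 0.143 in ssrp1-2, 0.115 in wild type 4 °C and 0.201 in wild type 22 °C. Both hen2-2 lists stood above the other 4 under each of these alternatives. Clusters under 200 nt were 41.2% in hen2-2 22 °C, 0 in ssrp1-2 and 0 in wild type 4 °C with at least 5 read pairs, and 39.2%, 0 and 0 after thinning.

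The 57 loci past 2-fold in hen2-2 over wild type at 22 °C were 33 after thinning and 35 with at least 20 read pairs. The 43 at 4 °C were 80 with no minimum and 28 with at least 20. The 26 in spt16-1 were 16 with clusters of at least 5, 9 after thinning (2 higher, 7 lower), 15 without pseudogenes, 13 at 3-fold and 11 with at least 20. The 22 in ssrp1-2 were 10 at 3-fold, 35 with no minimum and 13 with at least 20. The 32 in wild type 4 °C over 22 °C were 17 after thinning, 21 without pseudogenes, 21 at 3-fold and 16 with at least 20. The 33 in hen2-2 4 °C over 22 °C were 17 at 3-fold, 56 with no minimum and 20 with at least 20. Pooled lists and depth limit these values, since 1 value a group leaves no replicate error and a locus near 3 read pairs can be missed.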

Other observations

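MIR775 and the snoRNA gene AT1G09787, which lies before it on the same strand, each had 4 read pairs in hen2-2 at 22 °C and none in any other list, and their clusters started at neighbouring bases, chr1:29422100 for the cluster of 660 nt assigned to MIR775 and chr1:29422101 for that of 376 nt assigned to the snoRNA. AT1G09787 was picked after its values were seen. AtsnoR7-2 (AT3G08165), picked in the same way, had 3 read pairs in hen2-2 at 4 °C, 10 in hen2-2 at 22 °C, 10 in wild type at 4 °C and none in spt16-1, ssrp1-2 or wild type at 22 °C, in clusters of 870 to 973 nt.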
